A study of Mus musculus with 52 samples.

Results

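The Sp100, Sp110 and Sp140 repeat cluster is a group of 8 annotated genes on mouse chromosome 1: C130026I21Rik, A530032D15Rik, Gm10553, G530012D18Rik, Sp110, Sp140, Sp100 and A630001G21Rik. Its members in the ChIP-seq data were the peaks whose midpoint lay in a window of 2 Mb of chromosome 1 on the build mm10 (GRCm38), from 1150 kb before to 850 kb after the Sp100 start site. This window held 302 of the 6993 peaks of the SmcHD1 list from wild-type (wt) cells and 1 of the 244 peaks of the SmcHD1 list from SmcHD1 mutant (mut) cells. Of the CTCF lists it held 74 of 60204 peaks for wt, 74 of 57798 for mut and 101 of 69736 for the somatic knockout (somKO), and of the Rad21 lists 50 of 67655, 54 of 66031 and 78 of 89974. The genes and the window had been chosen by their density of SmcHD1 wt peaks, so that this density is a description and was not tested, whereas the CTCF and Rad21 lists and the genome sequence were not used in the choice.

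SmcHD1 is a non-canonical member of the structural maintenance of chromosomes family that represses genes on the inactive X chromosome and in some autosomal gene clusters. Sp100 is a core component of PML nuclear bodies, and Sp110 and Sp140 are its relatives in the Speckled protein family, which take part in interferon responses and transcriptional control in immune cells. The genes lie in a stretch of mouse chromosome 1 that has been copied locally many times over, so that much of its sequence is present in several near-identical versions. CTCF is the main insulator protein of mammals, and Rad21 is a subunit of cohesin, the ring complex that accumulates where CTCF holds it.

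All cells were clonal female mouse embryonic fibroblasts from F2 embryos of a cross of M.m.domesticus (FVB) with M.m.Castaneus. The wt lists came from clone Wt2A1 and the mut lists from clone Mut5A6, which carries the germline SmcHD1 MommeD1 null mutation. The somKO lists came from the CRISPR knockout clones A3-3 and D4, made in another wt clone than Wt2A1, and no SmcHD1 list was used for them. Autosomes of such F2 lines are a mosaic of both strains, so that genotype, clone and strain origin of this part of chromosome 1 cannot be told apart. Each list came from merged reads of both alleles, namely of 3 libraries each for both SmcHD1 lists. The CTCF lists of wt, mut and somKO merged 3, 3 and 4 libraries, and the Rad21 lists 2, 2 and 4. With 1 list per group there is no replicate error and no test between groups. Depth is unknown, and all intervals given are 95% Wilson intervals that cover counting error only.

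The extent of SmcHD1 binding was determined first. Peaks of the wt list formed 2 dense blocks, whose neighbouring midpoints lay at most 50 kb apart, and 1 lone peak. The proximal block ran from chr1:84953765-85343917, a length of 390 kb, and held 193 peaks. The distal block ran from chr1:85447324-85652275, a length of 205 kb, and held 108 peaks. Between them lay an assembly gap of unknown sequence at chr1:85347104-85447103, 100 kb long, in which no peak can be listed. The last proximal peak ended 3.19 kb before the gap and the first distal peak began 0.220 kb after it. The peaks thus reached up to the gap from both sides, and whether the blocks are joined cannot be told from this assembly. The lone peak, at chr1:86487377-86487599 with a score of 54, lay 835 kb past the distal block.

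Before the window, the last SmcHD1 wt peak of chromosome 1 was at chr1:82291089-82291281 with a score of 32. The first peak past the window was at chr1:86525029-86525255 with a score of 45. The deposited score was read as 10 times −log10 of the MACS2 q-value and was used only to order peaks within a list. The window held 77.0% (72.6% to 80.9%) of the 392 wt peaks of chromosome 1, which is 151 peaks per Mb against 0.465 over the rest of that chromosome. The highest count in any other 2 Mb window on a fixed grid of the autosomes was 152 peaks, at 14 to 16 Mb of chromosome 5. Of 49264 autosomal bins of 50 kb, 19 held 20 peaks or more, and 9 of these lay in the window.

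The first peak, at chr1:84953765-84954046 with a score of 33, lay in the interval between genes. It was 18.6 kb upstream of the start of Slc16a14, a monocarboxylate transporter family gene on the minus strand, and 38.9 kb before the annotated end of C130026I21Rik, which is read from the minus strand. The last peak, at chr1:85651750-85652275 with a score of 92, lay inside Sp100, and its end was 2.29 kb past the Sp100 start site. The rest of Sp100 and the whole of A630001G21Rik, which begins 64.8 kb past the last peak, held no SmcHD1 peak. The blocks of peaks therefore spanned 6 of the 8 genes, the 5′ end of Sp100 and no part of A630001G21Rik.

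**Figure D1:**
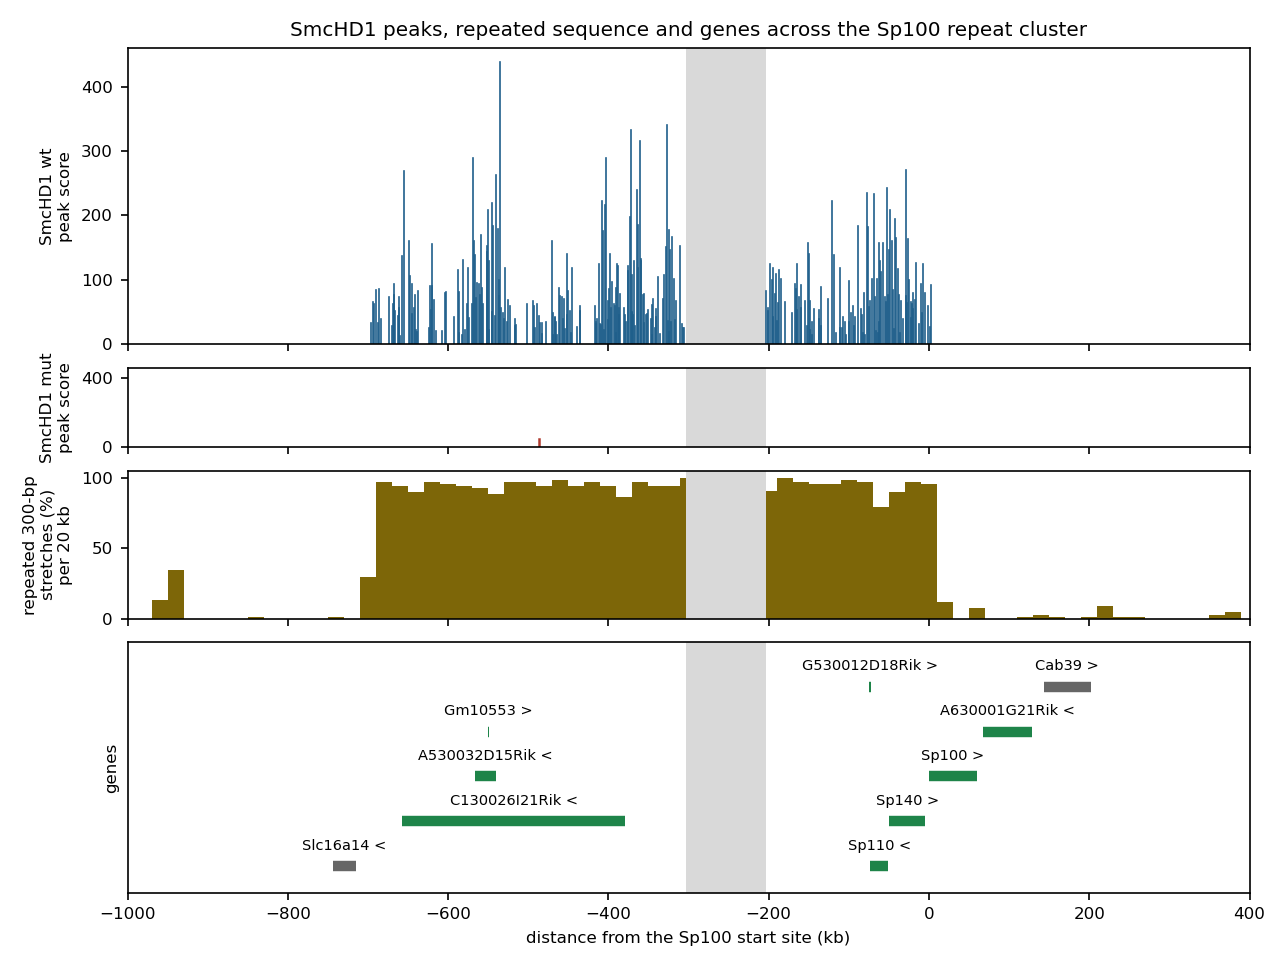
SmcHD1 wt peaks (score, top), SmcHD1 mut peaks (score), the share of 300-bp stretches that have a further near-identical match on chromosome 1 (percent per 20 kb) and gene positions, against the distance from the Sp100 start site in kb. Gray marks the assembly gap, green bars the 8 listed genes and gray bars Slc16a14 and Cab39, which lie outside. The 193 peaks of the proximal block and the 108 of the distal block lie along the stretch of repeated sequence, which runs on past the last peak. The mut list has 1 peak.

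Within the blocks the peaks were closely set. The median distance between neighbouring midpoints was 1320 bp in the proximal block (quartiles 927 and 2026 bp, 192 distances) and 1406 bp in the distal block (quartiles 989 and 2286 bp, 107 distances). Of all 299 distances, 86 were under 1 kb and 18 over 5 kb. The longest stretch of a block without a peak was chr1:85215457-85232547, 17.1 kb within C130026I21Rik. Over the rest of chromosome 1 the median distance was 1065312 bp. The peaks covered 162 kb, or 27.2% of the bases of the blocks, and the share was the same in each block.

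Peaks of the blocks also had higher scores than most of the list. Their median score was 67 (quartiles 40 and 114), against 44 for the 4853 other autosomal peaks and 44 for the 1792 peaks of chromosome X. A score of at least 50 was reached by 65.8% of the block peaks and by 41.7% and 40.0% of those groups. They were wider, with a median of 419 bp against 309 and 319 bp. The highest scores of the list were elsewhere, since the highest peak of the blocks scored 438 and the highest other autosomal peak 18012.

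**Figure D2:**
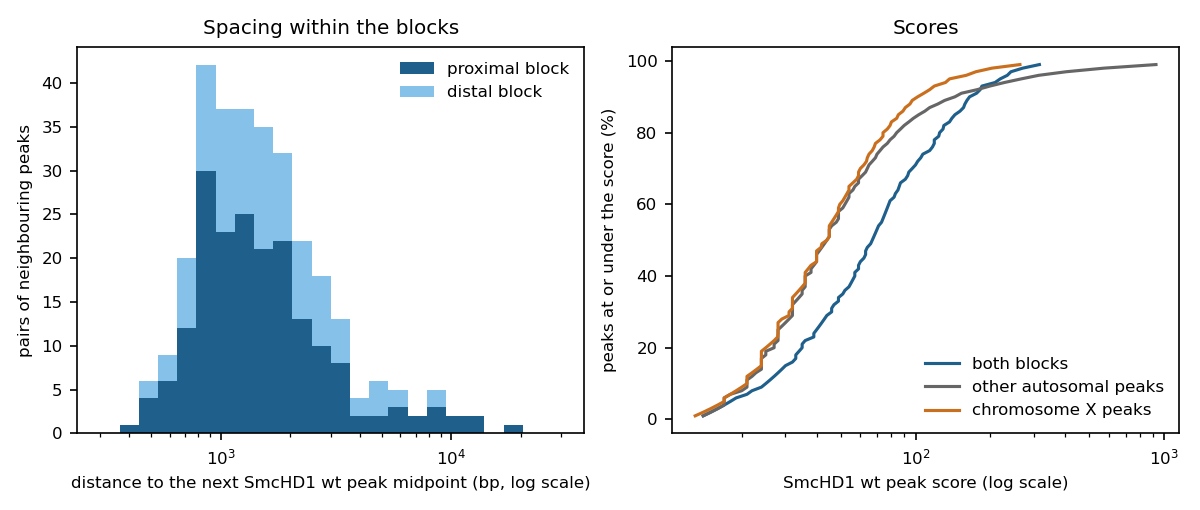
Left, distances between midpoints of neighbouring SmcHD1 wt peaks in bp on a log axis, as numbers of pairs in the proximal and distal blocks. Right, the cumulative share of peaks (percent) by score on a log axis for the blocks, other autosomal peaks and chromosome X peaks (medians of 67, 44 and 44).

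To place the peaks relative to the genes, each was assigned by its midpoint to a gene body, to the 1 kb upstream of a start site or to an interval. Of the 302 peaks, 170 (56.3%, 50.7% to 61.8%) lay in the body of a listed gene, 3 in a promoter and 129 (42.7%) in an interval. Inside the blocks 56.5% of peaks lay in bodies, which make up 58.5% of the bases there, and 42.5% in intervals, which make up 40.8%. The share of peaks in each class was thus close to its share of the bases. With all annotated genes, pseudogenes included, 80.1% of the block peaks lay in bodies, which then make up 80.5% of the bases.

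C130026I21Rik (minus strand, chr1:84992690-85270566) held the most peaks. Its 278 kb body contained 125 SmcHD1 wt peaks, 4.50 per 10 kb, with scores from 14 to 438 and a median of 63. A530032D15Rik (minus strand, chr1:85083069-85109853) lies inside C130026I21Rik and held 16 of the same peaks, 5.97 per 10 kb, with a median score of 94.5. Gm10553 (plus strand, chr1:85100164-85100535), also inside, held none in its 0.372 kb body, but a peak scoring 209 ended 11 bp from its start site.

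The 3 genes of the distal block had densities above that of C130026I21Rik, whereas Sp100 and A630001G21Rik had lower ones. Sp110 (minus strand, chr1:85576899-85598817) held 15 peaks, 6.84 per 10 kb, with a median score of 102 and a highest score of 242. Sp140 (plus strand, chr1:85600378-85645037), a chromatin reader of immune cells, held 27 peaks, 6.05 per 10 kb, with a median score of 76 and a highest score of 270. G530012D18Rik (plus strand, chr1:85575676-85577295) held 1 peak, with a score of 68. Sp100 (plus strand, chr1:85649988-85709998) held 2 peaks in 60.0 kb, 0.333 per 10 kb, with scores of 27 and 92. A630001G21Rik (minus strand, chr1:85717083-85778643) held none.

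Peaks at start sites were present at 4 of the 8 genes, where peaks cover 27.2% of the bases of the blocks. A SmcHD1 wt peak lay over the annotated start sites of A530032D15Rik (score 263), Sp140 (score 146), Sp110 (score 77) and C130026I21Rik (score 57). None lay over that of Sp100, where the nearest peak began 518 bp inside the gene, nor over those of Gm10553, G530012D18Rik and A630001G21Rik. RefSeq gives Sp110 a further start, whose promoter at chr1:85603842-85604141 overlapped no SmcHD1 wt peak.

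The promoters of 3 of these genes are printed because they are copies of each other and each overlaps a SmcHD1 wt peak (RefSeq, GRCm38.p6, 5′ to 3′ on the strand of the gene). Capitals mark the bases that are identical in all 3, of which there are 254 in each.
A530032D15Rik: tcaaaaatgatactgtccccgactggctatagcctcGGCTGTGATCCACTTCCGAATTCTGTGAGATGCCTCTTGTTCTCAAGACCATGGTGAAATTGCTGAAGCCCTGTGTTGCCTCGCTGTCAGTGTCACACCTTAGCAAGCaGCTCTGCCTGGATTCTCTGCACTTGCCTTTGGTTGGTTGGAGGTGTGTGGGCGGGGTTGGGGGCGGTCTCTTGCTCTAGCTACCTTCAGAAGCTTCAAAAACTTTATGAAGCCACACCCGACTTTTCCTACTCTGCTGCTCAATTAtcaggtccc
C130026I21Rik: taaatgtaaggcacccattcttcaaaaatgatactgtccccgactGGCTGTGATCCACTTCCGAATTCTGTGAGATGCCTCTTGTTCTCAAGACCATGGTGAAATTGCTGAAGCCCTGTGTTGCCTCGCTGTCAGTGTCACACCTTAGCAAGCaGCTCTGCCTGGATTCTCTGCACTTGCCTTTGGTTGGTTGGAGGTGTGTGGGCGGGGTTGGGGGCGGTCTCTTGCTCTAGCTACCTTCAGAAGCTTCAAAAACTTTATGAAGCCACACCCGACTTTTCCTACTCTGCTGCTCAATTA
Sp140: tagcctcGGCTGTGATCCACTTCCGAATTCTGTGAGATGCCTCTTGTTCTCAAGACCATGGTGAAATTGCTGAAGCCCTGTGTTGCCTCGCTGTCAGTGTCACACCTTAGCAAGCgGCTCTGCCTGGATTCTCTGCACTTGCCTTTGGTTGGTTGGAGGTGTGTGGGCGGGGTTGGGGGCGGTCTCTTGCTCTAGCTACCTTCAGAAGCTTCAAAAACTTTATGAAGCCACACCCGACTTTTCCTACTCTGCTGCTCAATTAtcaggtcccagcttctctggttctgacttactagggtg

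These windows, placed by the RefSeq starts, lie at chr1:85109804-85110103, chr1:85270517-85270816 and chr1:85600453-85600752. Over 271 aligned bases the Sp140 promoter differed from that of A530032D15Rik at 1 base, and over 255 aligned bases it differed from that of C130026I21Rik at 1 base. The promoters of A530032D15Rik and C130026I21Rik were identical over 279 aligned bases with 1 gap. The peaks over the promoters of A530032D15Rik, C130026I21Rik and Sp140 scored 263, 57 and 146, so that near-identical promoters were listed with peaks of unequal score. How reads that match several copies equally well were handled is not given. What part they had in these scores was not tested, so the scores cannot be read as binding at single copies. Neither the Sp100 promoters nor those of Sp110 aligned with these 3 over more than 11 bases. No CTCF or Rad21 wt peak overlapped any promoter of the listed genes in the RefSeq table.

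The sequence of the window was then compared with the peaks. Each 300-bp stretch was matched to chromosome 1, and called repeated where it had a further match of at least 95% identity over 80% of its length. In the blocks 1868 of 1983 stretches were repeated, or 94.2%, with 94.2% in the proximal and 94.1% in the distal block. In the rest of the window 180 of 4348 were repeated, or 4.14%. Of the stretches of the blocks 93.1% had at least 1 further match within the window itself.

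At the proximal side the repeats and the peaks began together. In the 10 kb before the first peak 1 of 34 stretches was repeated, and in the 10 kb from its start onward 30 of 33 were. At the distal side the repeats ran on past the last peak. In the first 10 kb after the last peak, inside Sp100, 31 of 33 stretches were repeated and no SmcHD1 wt peak was listed, and in the next 10 kb 2 of 34 were. Over all of Sp100, 19.5% of stretches were repeated, against 94.0% of Sp140, 79.5% of Sp110, 94.2% of C130026I21Rik and 0.488% of A630001G21Rik.

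Repeated and single stretches within the blocks held peaks at similar rates. Of the 1868 repeated stretches 42.0% overlapped a SmcHD1 wt peak, and of the 115 single stretches 38.3% did. Outside the blocks 2 of 180 repeated stretches (1.11%) and 2 of 4168 single ones (0.0480%) overlapped a peak. The 2 single ones lie at the lone peak. The 2 repeated ones straddle the ends of the proximal block and touch its first and last peak. No repeated stretch further out touched a peak, so these shares show no excess in repeated sequence outside the blocks. Stretches of the same block share their surroundings and are not independent.

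Of the 302 peaks themselves, 290 (96.0%, 93.2% to 97.7%) had a further near-identical match on chromosome 1, and 288 of these had it within the window. Of the 90 SmcHD1 wt peaks on the rest of chromosome 1, 28 (31.1%, 22.5% to 41.3%) had one. A block peak had a median of 3 further copies within the window, with a range of 0 to 13. The median identity of the 975 copies was 98.5%, and 578 of them (59.3%) were inverted relative to the peak. The nearest copy lay at a median distance of 124 kb, and 56.4% of the copies lay on the other side of the assembly gap. The sequences also matched scaffolds that are placed on no chromosome, since 296 of 301 block peaks (98.3%) had a near-identical match there, whereas 13 (4.32%) had one on another chromosome. None of the 8 lists holds a peak off the chromosomes, and how reads with several equally good positions were handled is not given in the sources used here. What part such reads had in the peaks was not tested.

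Copies of a peak sequence touched a peak somewhat more often than block stretches of 1 fixed length, the median of the copies. Longer stretches touched peaks more often (45.8% at 404 bp and 55.3% at 702 bp). The lengths of single copies were not matched, and what part length had in the difference was not tested. Of the 975 further copies 525 shared at least 1 bp with a SmcHD1 wt peak (53.8%), against 45.8% of all stretches of the same median length in the blocks. For copies of the 50 highest-scoring peaks the share was 80.2% against 55.3%, and for copies of the 50 lowest 45.6% against 43.5%. When peaks had to cover 50% of the copy, a setting chosen after seeing the data, the shares were lower, at 30.7% against 27.2% for all copies. They were then 49.5% against 24.9% for copies of the 50 highest peaks and 24.4% against 27.1% for those of the 50 lowest. Copies were counted from each peak to each of its partners, so that pairs of peaks entered from both sides and large families many times, and no interval is given. Of the 288 peaks with a copy in the window, 76 had a peak touching every copy and 35 touching none.

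**Figure D3:**
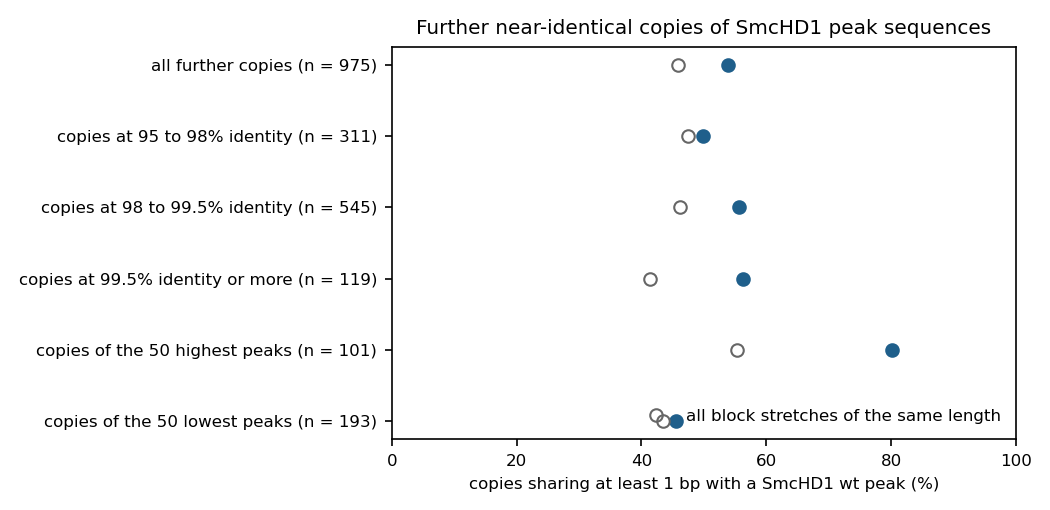
Share of further near-identical copies in the window that overlap a SmcHD1 wt peak by at least 1 bp (percent, filled points), for all copies, by identity and for the 50 highest and lowest peaks. Open circles give the share among all stretches of the blocks of the same median length. Copies of the 50 highest peaks stand at 80.2% against 55.3%.

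Peaks with shared sequence were grouped into families by single linkage. This can join neighbouring peaks through a wider peak, so the members of a family need not all be copies of each other. In the largest family, for example, the neighbours at chr1:85156133-85156572 and chr1:85156972-85157199 are both members. The 302 peaks fell into 143 families, of which 74 held 1 peak and 69 held 2 or more. In 59 families there were peaks of both blocks. The largest family had 11 peaks with scores from 25 to 99, the next had 9 with scores from 35 to 315, and the next 8 with scores from 18 to 125. The second family had the highest scores (median 185), and 7 of its 9 peaks overlapped a CTCF wt peak, whereas no peak of the other families named did.

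A stretch of 100 bases is printed for each of these 3 families, because it lets the copies of that stretch with and without a peak over them be listed. The stretch does not occur in every peak of its family. It is taken from the highest peak of the family, on the plus strand, and capitals mark bases that are identical in all its copies in the blocks.
Family of 11 peaks, chr1:85550665-85550764: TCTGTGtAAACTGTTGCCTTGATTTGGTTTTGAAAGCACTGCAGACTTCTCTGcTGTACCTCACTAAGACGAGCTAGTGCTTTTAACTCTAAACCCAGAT
Family of 9 peaks, chr1:85288822-85288921: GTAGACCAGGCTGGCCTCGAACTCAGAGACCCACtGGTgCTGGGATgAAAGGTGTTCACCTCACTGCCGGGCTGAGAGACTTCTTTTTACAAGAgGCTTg
Family of 8 peaks, chr1:85238119-85238218: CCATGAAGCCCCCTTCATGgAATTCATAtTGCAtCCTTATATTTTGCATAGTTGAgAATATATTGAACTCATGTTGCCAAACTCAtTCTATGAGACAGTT

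The first of these stretches occurred 6 times in the blocks with at most 1 mismatch, and 98 of its 100 bases were the same in every copy. SmcHD1 wt peaks with scores of 86 and 99 covered 2 of the copies whole, a peak reached 7 bases into 1 further copy, and 3 had no peak over them. The second occurred 6 times, of which 4 were covered whole, by peaks with scores from 100 to 315, 1 shared 4 bases with a peak, and 1 had none. The third occurred 7 times, of which 4 were covered whole, by peaks with scores from 18 to 125, 1 shared 12 bases with a peak, and 2 had none. Some copies without a peak lay close to one, so that the peak borders set which copies count as covered. Copies this alike can share reads, whose handling is not given, so a listed or missing peak cannot be read as binding at that copy alone.

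In base composition the block peaks were unlike the other SmcHD1 wt peaks of chromosome 1. They had a GC content of 45.2% and 8.74 CpG dinucleotides per kb, close to the 44.0% and 8.97 of all bases of the blocks. The 90 peaks elsewhere on the chromosome had 58.8% and 58.6 CpG per kb. Interspersed repeats (the soft-masked bases of the assembly) made up 26.3% of the block peaks and 44.5% of all bases of the blocks.

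The SmcHD1 mut list gave the background. Its only peak in the window was at chr1:85164207-85164532, within C130026I21Rik, with a score of 51. It overlapped a wt peak with a score of 33 at chr1:85164304-85164775. The window thus held 0.410% (0.0724% to 2.28%) of the mut list and 4.32% (3.87% to 4.82%) of the wt list. Of the 301 block peaks 1 overlapped a mut peak (0.332%, 0.0587% to 1.86%), where 2.33% of the whole wt list did. The mut cells carry a null mutation of SmcHD1 and serve as the background of the antibody, and the other 300 block peaks had no counterpart in their list.

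In the blocks CTCF peaks were above their autosomal density and Rad21 peaks below theirs. In wt the blocks held 21 CTCF peaks, or 3.53 per 100 kb, against 4.06 in the rest of the window and 2.36 over the autosomes. For Rad21 there were 7 peaks, or 1.18 per 100 kb, against 3.30 in the rest of the window and 2.67 over the autosomes. The block peaks of CTCF were mostly weak, with a median score percentile of 15.4 within the list against 59.0 in the rest of the window.

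SmcHD1 wt peaks of the blocks met CTCF and Rad21 less often than peaks elsewhere. The block peaks share 1 region and mostly have near-identical copies, so they are not independent, and the difference was not tested. Of the 301 peaks 22 (7.31%, 4.88% to 10.8%) overlapped a CTCF wt peak, against 25.5% (24.3% to 26.8%) of the 4853 other autosomal peaks and 20.4% of the whole list. For Rad21 the share was 8 of 301 (2.66%, 1.35% to 5.16%), against 32.4% (31.1% to 33.8%) and 25.9%. Those that met CTCF had a median score of 148, against 63 for those that did not.

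Seen from the other side, most CTCF and Rad21 peaks of the blocks lay at SmcHD1 peaks. Of the 21 CTCF wt peaks 18 (85.7%, with a lower bound of 65.4%) overlapped a SmcHD1 wt peak, where 2.13% of the whole CTCF wt list did and 0 of 53 in the rest of the window. Of the 7 Rad21 wt peaks 6 did (85.7%, 48.7% to 97.4%), where 2.48% of the whole list did. The blocks were defined by dense SmcHD1 wt peaks, so the contrasts with whole lists and the rest of the window were largely set beforehand. Within the blocks 45.8% of all stretches of 404 bp and 55.3% of those of 702 bp touched a SmcHD1 wt peak. The CTCF and Rad21 wt peaks of the blocks had median widths of 442 and 609 bp. With an overlap of 50% of both peaks, the share of the 193 SmcHD1 wt peaks of the proximal block that met Rad21 fell from 3.11% to 0.

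A set of 6 CTCF wt peaks in the blocks overlapped CTCF peaks of mut and somKO and Rad21 peaks of all 3 genotypes. They are called composite sites here, numbered from the proximal side, and 5 lay in the proximal block and 1 in the distal block, in the body of Sp110. All 6 overlapped SmcHD1 wt peaks. Their CTCF wt peaks were 1096 to 2108 bp wide, and 55.3% of block stretches of only 702 bp touched a SmcHD1 wt peak. The overlap is therefore described and was not tested. Their highest SmcHD1 peaks ranked 1, 2, 4, 8, 13 and 28 by score among the 301 block peaks. Each rank is that of the highest of up to 3 SmcHD1 peaks at the site.

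The sequences at these sites are printed because the 4 sites that hold a pair of CTCF motifs are near copies of each other. The motif searched was the CTCF core CCA, any 2 bases, AG, any 2 bases and GGC, on both strands, and capitals mark its matches, so that a match on the opposite strand reads from GCC to TGG. Sites 1, 3 and 6 are given on the plus strand and site 4 on the minus strand. Site 2, on the plus strand, holds a single match, which is on the opposite strand.
Site 1, chr1:84994660-84994738: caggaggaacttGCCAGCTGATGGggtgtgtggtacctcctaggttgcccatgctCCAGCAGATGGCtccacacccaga
Site 3, chr1:85243454-85243532: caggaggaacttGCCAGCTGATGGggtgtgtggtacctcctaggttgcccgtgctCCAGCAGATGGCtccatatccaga
Site 4, chr1:85287609-85287687: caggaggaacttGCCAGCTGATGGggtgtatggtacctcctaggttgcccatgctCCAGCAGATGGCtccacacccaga
Site 6, chr1:85581329-85581407: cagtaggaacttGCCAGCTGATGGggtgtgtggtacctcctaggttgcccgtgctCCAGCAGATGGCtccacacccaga
Site 2, chr1:85114874-85114909: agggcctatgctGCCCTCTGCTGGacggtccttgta

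Sites 1, 3, 4 and 6 each held 2 matches on opposite strands, whose leftmost bases were 43 bases apart. Over the 79 printed bases these 4 sites differed from each other at 1 to 4 positions. A search of the blocks with up to 12 mismatches found this sequence at these 4 places and nowhere else, and CTCF peaks of all 3 genotypes and a SmcHD1 wt peak lay over each. Rad21 peaks of mut and somKO lay over the printed bases at all 4 and those of wt at sites 1 and 6. Site 2, within C130026I21Rik, was unlike them, and site 5 (chr1:85322696-85323791) held no match to the motif. Of the 300-bp centres of the 21 CTCF wt peaks of the blocks, 28.6% held the motif, against 47.2% in the rest of the window, 30.9% of CTCF wt peaks of chromosome 1 and 1.36% of all 300-bp stretches of chromosome 1. Of the centres of the SmcHD1 block peaks 3.32% (1.81% to 6.01%) held it, against 1.56% of all stretches of the blocks.

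Site 2 was the strongest of the 6 in every list. For wt, mut and somKO its CTCF scores were 28498, 50249 and 80737, and its Rad21 scores 5420, 6397 and 35775. It coincided with the highest SmcHD1 wt peak of the blocks, chr1:85114702-85115719 (score 438), which is also the peak with the highest CTCF and Rad21 wt scores of the blocks. Site 6, in Sp110, had CTCF scores of 13008, 16970 and 32521 and Rad21 scores of 2439, 3678 and 18401, beside a SmcHD1 wt peak of 234. Since scores depend on depth, they were compared as percentiles of their own list. The definition fixes that the 6 sites are listed in every genotype, so that only their levels are described. They stood between 98.3 and 100.0 for CTCF in the 3 genotypes. For Rad21 they stood between 77.9 and 100.0, and site 5 was the lowest in each, at 78.1 in wt, 77.9 in mut and 92.3 in somKO. At every site the Rad21 percentile was higher in somKO than in wt.

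Of the 3 highest SmcHD1 wt peaks of the proximal block, the third, at chr1:85277549-85277955 (score 332), overlapped no CTCF or Rad21 wt peak. The highest of the distal block, at chr1:85620575-85621083 within Sp140 (score 270), overlapped none either. High SmcHD1 scores therefore occurred at CTCF sites and away from them.

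**Figure D4:**
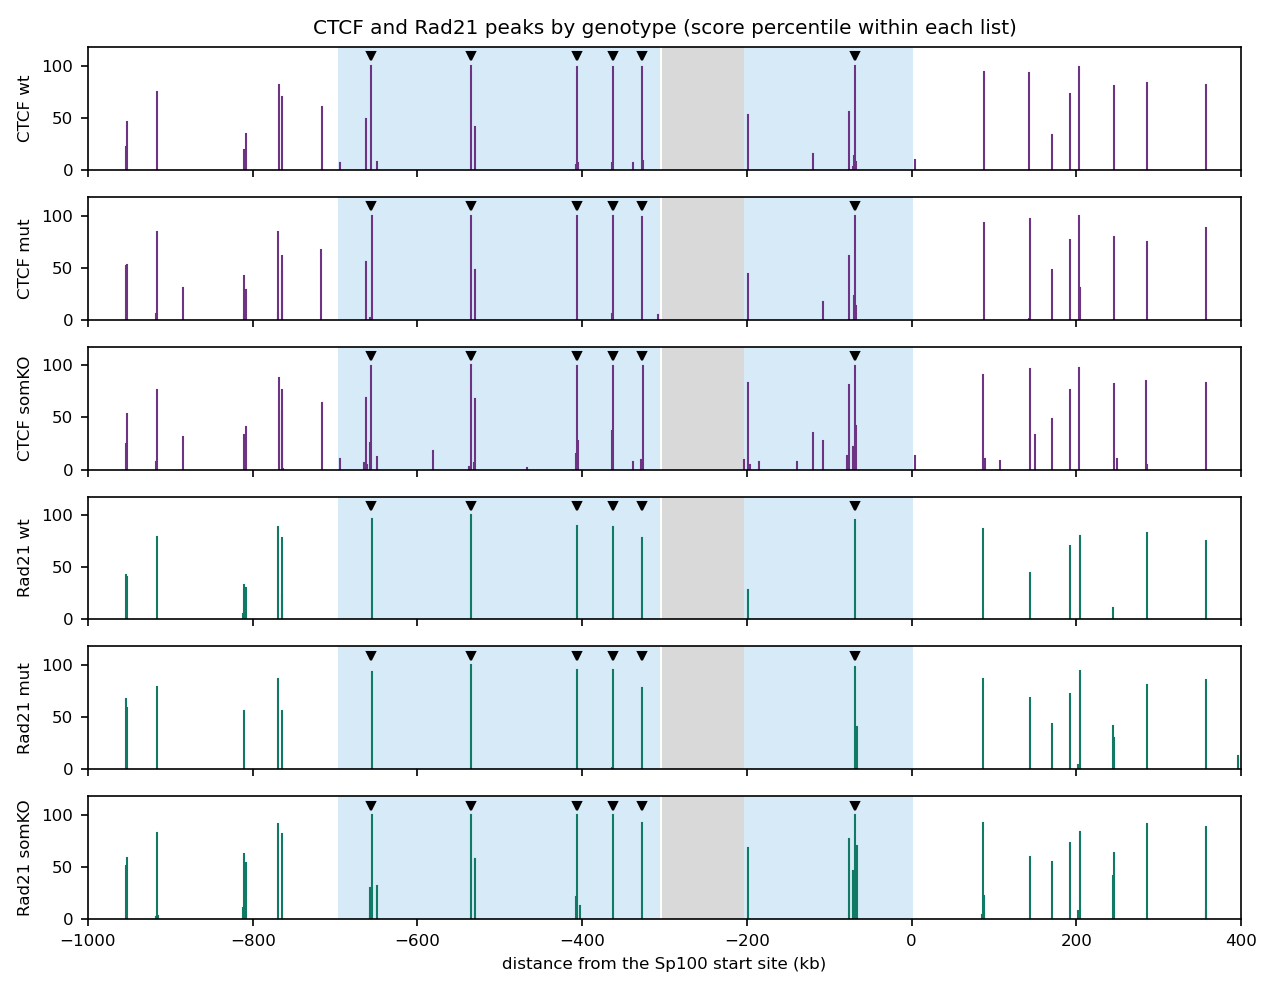
CTCF and Rad21 peaks of the 3 genotypes against the distance from the Sp100 start site in kb, with line height giving the percentile of the score within its own list. Blue marks the SmcHD1 blocks, gray the assembly gap and triangles the 6 composite sites, which carry CTCF and Rad21 peaks in all 6 lists. The somKO lists show more short lines in the blocks, with 35 CTCF peaks against 21 in wt.

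By genotype, the blocks held 21 CTCF peaks for wt, 16 for mut and 35 for somKO. The log2 ratio to wt was −0.39 in mut, against −0.06 over the whole list, and 0.74 in somKO, against 0.21. In the rest of the window it was 0.13 and 0.32. Rad21 peaks in the blocks numbered 7, 8 and 16, a log2 ratio of 0.19 in mut and 1.19 in somKO, against −0.04 and 0.41 over the whole list and 0.10 and 0.53 in the rest of the window. The CTCF counts of mut and somKO thus lay on opposite sides of wt. When the lists of an antibody were cut to equal length by score, the blocks held 20, 16 and 18 CTCF peaks and 7, 8 and 13 Rad21 peaks, so that the excess of CTCF in somKO was lost and that of Rad21 remained as a difference of 6 peaks. With peaks of a score of at least 50 alone, the blocks held 14 CTCF peaks for wt, 13 for mut and 29 for somKO, and 7, 7 and 14 Rad21 peaks.

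The peaks that came and went were mostly weak. Of the 35 CTCF peaks of somKO in the blocks, 16 had no wt counterpart (45.7%, 30.5% to 61.8%), against 22.6% gained over the whole list and 24.2% in the rest of the window. Their median score percentile was 6.57, and 14 of the 16 overlapped a SmcHD1 wt peak. This was close to the share among all CTCF somKO peaks of the blocks, 31 of 35 (88.6%). The interval of the gained share, which covers counting error only, lies above the value of the whole list, but under equal list length 4 of 18 were gained. In mut 2 of 16 (12.5%) were gained, against 16.8% over the whole list.

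Of the 21 CTCF wt peaks of the blocks, 8 were lost in mut (38.1%, 20.8% to 59.1%), against 19.7% over the whole list and 13.2% in the rest of the window. The strongest of these 8 stood at percentile 15.4. In somKO 0 of 21 were lost (up to 15.5%), against 7.63%, and under equal list length 4 of 20. The interval of the mut share, which covers counting error only, begins just above the value of the whole list. The CTCF wt peaks of the blocks were mostly weak, with a median percentile of 15.4 against 59.0 in the rest of the window. Loss was not compared among peaks of like score, so an excess in the blocks cannot be read from these shares. Under equal list length 7 of 20 were lost in mut.

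For Rad21, 9 of 16 somKO peaks of the blocks were gained (56.2%, 33.2% to 76.9%), against 37.8% over the whole list, and 2 of 8 mut peaks, against 27.2%. The highest gained somKO peak scored 881, at percentile 77.2. Lost were 1 of 7 wt peaks in mut (14.3%), against 28.5%, and 0 of 7 in somKO, against 7.22%. The intervals of these shares include the values of the whole lists. Mut and somKO were set against the same wt lists, so that the values of both are not independent of each other.

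**Figure D5:**
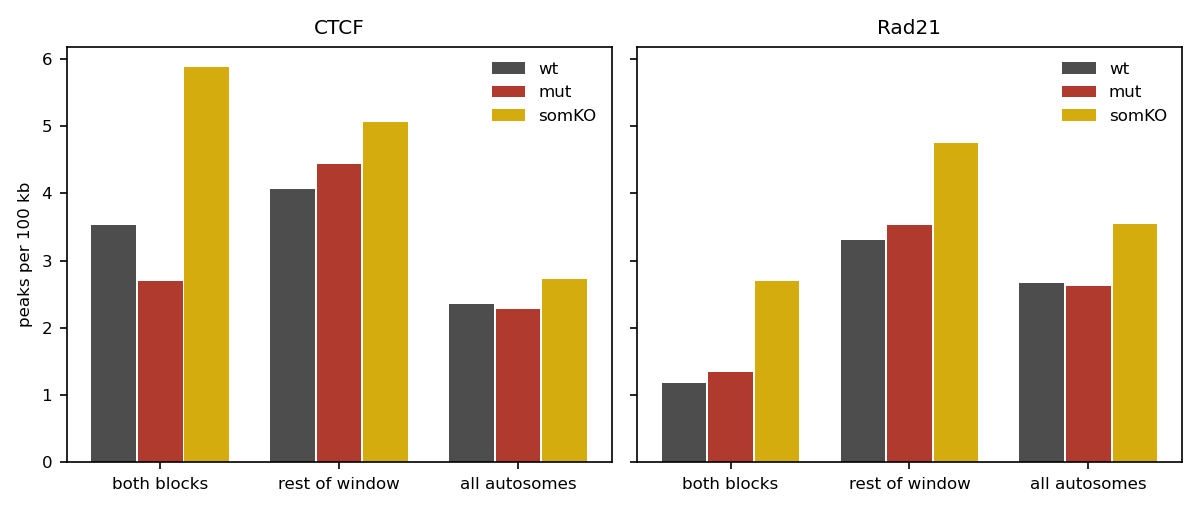
Peaks per 100 kb of CTCF (left) and Rad21 (right) in the SmcHD1 blocks, in the rest of the window and over all autosomes, for wt, mut and somKO. Each bar is 1 merged list and has no replicate error. The blocks held 5.88 CTCF peaks per 100 kb in somKO against 3.53 in wt, and 2.69 Rad21 peaks against 1.18.

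Gene by gene, C130026I21Rik held 7, 5 and 11 CTCF peaks in wt, mut and somKO and 3, 3 and 8 Rad21 peaks. Sp110 held 4, 3 and 3 CTCF peaks and 1, 2 and 3 Rad21 peaks. The lower CTCF count of somKO there is not a lost peak. Its peak at chr1:85580201-85582319 spans the wt peaks at chr1:85580229-85580532 and chr1:85580782-85582284. Counts by genotype thus also depend on how neighbouring peaks were merged or split. Sp100 held 1, 0 and 1 CTCF peaks and no Rad21 peak. A630001G21Rik, outside the SmcHD1 blocks, held 1, 1 and 3 CTCF peaks and 1, 1 and 4 Rad21 peaks. The bodies of Sp140, A530032D15Rik, Gm10553 and G530012D18Rik held no CTCF or Rad21 peak in any of the 6 lists. In the promoters the only such peak was 1 CTCF peak of somKO upstream of G530012D18Rik. Sp140 and A530032D15Rik thus carried 27 and 16 SmcHD1 wt peaks with no CTCF or Rad21 peak in their bodies. These bodies are 44.7 and 26.8 kb long. At the wt block densities of 3.53 CTCF and 1.18 Rad21 peaks per 100 kb, few peaks would fall in them in any case.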

How the data were processed

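ChIP-seq peak lists for SmcHD1 (wt, mut), CTCF and Rad21 (wt, mut, somKO) were analysed, 24 of 52 libraries in all. The other 28 libraries (H3K27me3 and inputs) were not used here. Fixation used EGS plus formaldehyde (SmcHD1, Rad21) or only formaldehyde (CTCF). According to the methods and the submitters' processing notes, the authors aligned reads with Bowtie2 to mm10 with strain variants masked and called narrow peaks with MACS2 (q below 0.05) on merged replicates and both alleles. Versions, use of inputs and treatment of reads with several positions are not given in the sources used here. The deposited score of each peak was read as 10 × −log10 q, because the lowest was 13 in every list. No column was left unused, and the files hold no read counts.

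The members and lists were chosen with earlier results of these data known. Peaks were assigned by midpoint to the bodies of the 8 genes (GENCODE M21), to 1 kb upstream or to intervals. Overlap meant 1 bp. Sequences came from GRCm38.p6, which has the coordinates of mm10, and were matched with blastn 2.17.0 (95% identity, 80% of the length). Promoters were aligned with Biopython 1.88, Wilson intervals (95%) came from SciPy 1.17.1, and overlap and matching steps were tested on simulated data. Gained peaks overlapped no wt peak of the antibody, and lost peaks were wt peaks without a counterpart. Named were all 8 genes, coding genes bordering or overlapping the tract, the 3 highest, first and last SmcHD1 wt peaks, the highest CTCF and Rad21 wt peaks and the 3 largest families. A count over genes of the PML body is not reported here. The composite sites, the other peaks and Cab39 were chosen after their values were seen. Alternatives were score filters, chaining distance, promoter width, gene set, overlap, list length and identity.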

Additional observations from a re-analysis of the deposited data

Results flagged for a closer look

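The number of CTCF peaks in the SmcHD1 blocks moved in opposite directions in the 2 genotypes that lack SmcHD1. The log2 ratio to wt was −0.39 in mut (16 against 21 peaks) and 0.74 in somKO (35 against 21). The difference was not tested, since each genotype has 1 list. The somKO list merged 4 libraries and the others 3, and with lists of equal length the counts were 20 in wt, 16 in mut and 18 in somKO. At a score of at least 50 they were 14, 13 and 29. Clone and strain origin cannot be told apart from genotype.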

How the results depend on the processing

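Of 115 alternative values, 85 counted as unchanged. Counts, lengths and spacings had to stay within 1.5 times the main value, shares within its interval, and the first and last base of the tract had to be identical. The cause of the other changes was not tested unless the alternative itself gives it. A score of at least 50 left 199 SmcHD1 wt peaks in the window, 122 in the proximal block and 8 CTCF wt peaks there. Leaving out peaks with a near-identical copy left 12 peaks in the window and a median spacing of 21654 bp. Joining both blocks across the gap, chosen after seeing the data, gave 699 kb, 301 SmcHD1 wt peaks, 16 CTCF peaks in mut and 35 in somKO. All annotated genes put 79.8% of peaks in bodies and 17.9% in intervals. At 98% identity 77.8% of peaks had a copy, and with 50% of the copy covered, chosen after seeing the data, 30.7% of copies were under a peak. With equal list length CTCF in the somKO proximal block fell to 11, shares gained in somKO in the window to 15.5% (CTCF) and 25% (Rad21), and CTCF lost in somKO rose to 14.1%. With 50% reciprocal overlap, shares gained in the window rose to 36.5% and 45.5% for CTCF in mut and somKO and to 48.1% and 66.7% for Rad21, and shares lost to 36.5%, 25.7%, 46% and 48%. SmcHD1 peaks of the proximal block overlapping CTCF fell to 3.63% and those overlapping Rad21 to 0. Chains of 25 and 100 kb gave the same tract. No paired analysis was possible because each group has 1 list of merged replicates, and for the same reason no replicate could be left out. Without counts the depth is unknown, so that an unlisted peak may be present below the threshold.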
